A study of Gallus gallus with 48 samples.

Results

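The comparison described here set chicken embryonic pituitary cells that received cycloheximide (CHX) before 24 h of corticosterone (CORT) against cells that received CORT alone for the same 24 h. Its samples were chosen by their labels: 4 replicates after CHX and 4 without, 8 of the 48 samples of the series. It was read across 5644 named genes, out of 6428 on the array, and 5563 probes without a gene name. Every sample shared a 2-colour cDNA array with a pool made of all 48 RNAs, and each value was read as a log2 ratio of the sample to that pool. This direction is likely and not stated: FKBP5, a classical glucocorticoid target, was higher in all 10 comparisons with CORT. All of these used the untreated or the CHX-alone group as baseline, so they were not independent. At 6 h FKBP5 differed by 1.05 without CHX and by 1.82 after it (limma, adjusted p 0.00968 and 3.43e-07). At 24 h without CHX the difference of 0.62 was not called (limma, adjusted p 0.999). With the opposite sign every direction given here would turn.

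Corticosterone is the main glucocorticoid of birds. It acts through a nuclear receptor that raises or lowers transcription of its target genes, and in the embryonic pituitary it is known for promoting the differentiation of growth hormone cells. Cycloheximide blocks the elongation step of translation on cytosolic ribosomes. Pretreatment with it is the usual way to ask which transcriptional responses need newly made protein, since a direct target of the receptor can respond without protein synthesis while a later target cannot. The block also removes short-lived proteins and can stabilise short-lived mRNAs.

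All cells came from anterior pituitary glands of chicken embryos at embryonic day 11, dispersed with trypsin and plated on poly-L-lysine in serum-free medium with albumin, insulin, transferrin and antibiotics. The 4 cultures of the CORT group received corticosterone at 1e-09 M for 24 h. The 4 cultures of the CHX group first received cycloheximide at 10 micrograms per ml for 1.5 h and then the same CORT for 24 h. The other 40 samples were untreated cells, cells given CHX alone, and both treatments at 1.5, 3, 6 and 12 h of CORT, with 4 replicates each. The titles do not say whether CHX was taken away before CORT was added. The CHX cultures were also treated for longer, by the time of the pretreatment. The labels call the replicates biological without saying whether each came from its own dispersion of glands, so the p-values rest on the spread among the samples at hand, which may be technical.

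The labelled tissue was checked on genes that define endocrine pituitary cells. Growth hormone (GH), POMC, TSHB, prolactin (PRL), the transcription factor POU1F1 and the granule genes CHGA, SCG2, PCSK1 and CPE were on the array and measured in enough samples to be tested, while CGA had a value on 5 of the 8 arrays and was not tested. A ratio to a pool gives no absolute level, so these genes show presence of signal and not its amount. In such mixed cultures, fewer cells of a type and less RNA per cell cannot be told apart.

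The arrays numbered 1 stood apart. Over all features, replicate 1 of the CORT group correlated at -0.123, -0.327 and -0.355 with replicates 2, 3 and 4 of its own group, and at 0.661 with replicate 1 of the CHX group. The labels put every sample in Cy3. Whether a deposited ratio was turned or a sample exchanged was not tested. Samples of equal number deviated together from their group means at 24 h, with correlations of 0.762, 0.297, 0.456 and 0.343 for numbers 1 to 4. The main results below come from a fit without this pairing, and the fit with the replicate number as a block is given where it alters a call or moves a count by over 1.5 times.

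After CHX, 127 of 5644 named genes were higher (2.25%) and 183 were lower (3.24%) at an adjusted p under 0.05 (limma, all 48 arrays in 1 fit). Together these were 5.49% of named genes. Over all 11207 features the counts were 249 higher (2.22%) and 306 lower (2.73%), 4.95% in all. The largest differences lay on the lower side, where 59 named genes passed a 2-fold difference, against 7 on the higher side. The 4 CHX values lay entirely outside the range of the 4 CORT values for 105 of the 127 higher genes and 154 of the 183 lower genes, against 11.3% of all named genes and 10.3% of all features. Taken by replicate number, 119 of the 127 were higher in all 4 pairs and 178 of the 183 were lower in all 4 pairs. The same arrays chose these genes, so the separation of groups and pairs describes them and adds no support. The median difference over all features was 0.04 on the log2 scale.

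The count moved with single arrays. It was 555 features in all. Without replicate 1, 2, 3 or 4 of the CHX group it was 517, 265, 559 and 264. Without replicate 1, 2, 3 or 4 of the CORT group it was 776, 270, 338 and 372. A fit that lacks 1 array also has less power, so a lower count alone does not show that calls rest on that array. Of the 310 named genes called, 91 kept the call in each of the 8 fits that lacked 1 array, 32 of them higher and 59 lower. With the replicate number as a block, 1558 features passed, 13.9% of those tested, and all 555 were among them with the same sign. Among named genes that fit called 328 higher (5.81%) and 510 lower (9.04%).

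The odd arrays were set beside the others. In a fit without replicate 1 of both groups, 250 features were higher and 315 lower after CHX. In the replicate 1 arrays, which that fit did not use, 226 of 249 of the higher features (90.8%) and 301 of 313 of the lower features (96.2%) differed in the same direction. Over all 11124 features measured in both, the 2 signs were equal for 65.4%. The differences were smaller in replicate 1, with medians of 0.30 against 0.70 for the higher features and -0.45 against -0.94 for the lower ones. Replicate 1 is 1 pair of arrays, and features of an array vary together, so these shares do not count separate confirmations. The 65.4% was taken over all features and not over features with differences of like size.

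**Figure D1:**
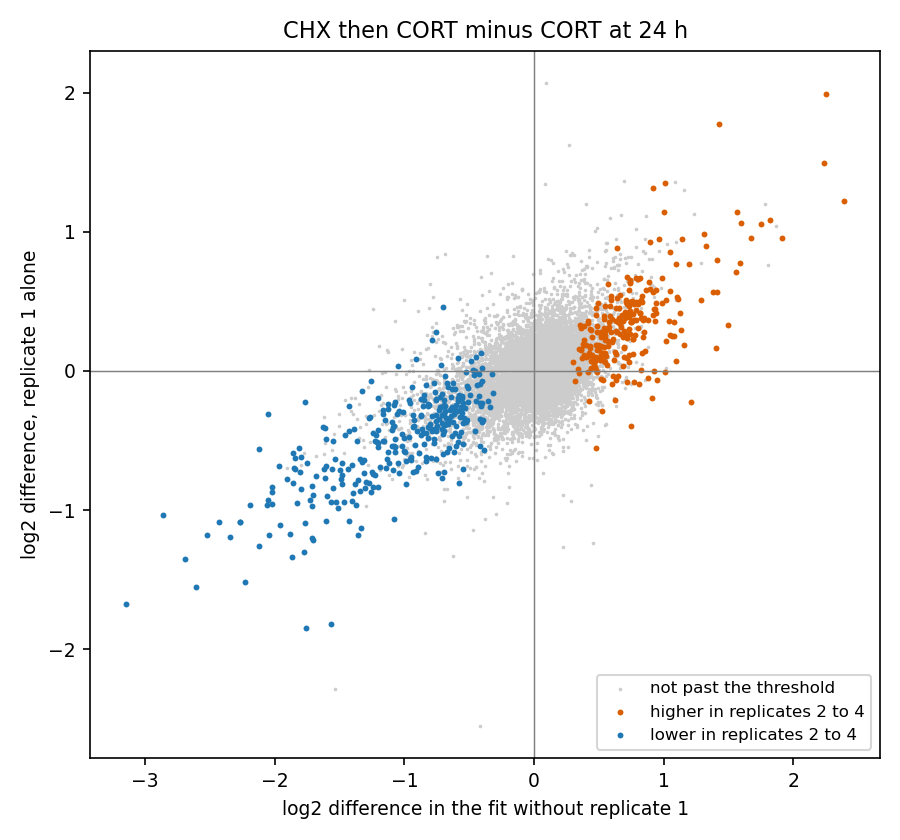
Difference between CHX then CORT and CORT alone at 24 h, on the log2 scale, for each of 11124 features: the fit without replicate 1 on the horizontal axis and the replicate 1 arrays alone on the vertical axis. Coloured points passed the threshold in the fit without replicate 1, and 90.8% of the higher and 96.2% of the lower ones lay on the same side of 0 in replicate 1.

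Several genes of RNA processing were among the largest rises. PTBP2, a polypyrimidine tract-binding protein that represses exons in the nervous system, had log2 ratios of -1.08, -0.89, -0.99 and -0.88 in CORT replicates 1 to 4 and of 0.41, 1.69, 1.01 and 1.26 after CHX. The groups were far apart, and the CORT replicates were close to each other. The difference was 2.05 ± 0.30 (SE; 4.15-fold, adjusted p 6.38e-05), the largest rise among called named genes whose groups did not overlap. SLTM, a nuclear RNA-binding protein related to the scaffold attachment factors, stood at -0.36, -0.65, -0.45 and -0.24 without CHX and at 0.22, 1.41, 0.50 and 0.89 after it. No CHX value reached down to a CORT value, and the difference was 1.18 ± 0.19 (adjusted p 0.000263).

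Of 37 splicing factors and hnRNPs, 4 were higher after CHX and 0 lower, against 2.25% and 3.24% of all named genes, and their median difference was 0.19. Besides PTBP2 and SLTM these were SF3A1 and SF3B3, both subunits of the U2 snRNP complex that recognises the branch point. SF3A1 ran from -0.50 to -0.27 in the CORT group and from 0.10 to 0.47 in the CHX group (difference 0.70 ± 0.13, adjusted p 0.00129). SF3B3 differed by 0.69 (adjusted p 0.0459), and its call was lost without replicate 2, 3 or 4 of the CHX group or replicate 1, 2 or 3 of the CORT group, at 0.57 to 0.75. The SF3B3 call was also lost in a fit of the 2 groups alone (adjusted p 0.111). With the block, 8 of the 37 were higher and 0 lower, against 5.81% and 9.04% of named genes. HNRNPD, HNRNPH1, CLK4 and DDX17 were the added genes.

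Further genes that act on RNA lay among the 14 largest rises. CPSF4, a subunit of the complex that cleaves and polyadenylates pre-mRNA, was at -0.29, -0.28, -0.74 and -0.60 without CHX and at 0.07, 0.65, 0.41 and 0.57 after it (difference 0.90 ± 0.17, adjusted p 0.00115). DUS3L, a dihydrouridine synthase, differed by 0.91 (adjusted p 0.00115). Neither of these groups of values overlapped, and both calls held in every fit that lacked 1 array. SNUPN, which carries spliceosomal snRNPs into the nucleus, differed by 0.88 (adjusted p 0.0377). Its call was lost without replicate 2, 3 or 4 of the CHX group or 1, 2 or 3 of the CORT group, at 0.74 to 0.90.

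CRIM1, a membrane protein that binds bone morphogenetic proteins, had values of -0.71, -0.91, -0.36 and -0.37 in the CORT group and 0.35, 1.35, 1.02 and 1.24 in the CHX group. The difference was 1.58 ± 0.23 (2.98-fold, adjusted p 6.38e-05). NFKBIA, the inhibitor that holds NF-kB in the cytosol and a glucocorticoid target in mammals, was at -0.82, -0.97, -1.30 and -1.23 without CHX and at -0.05, 0.32, 0.40 and 0.54 after it. Every CHX value lay above every CORT value for both genes. The NFKBIA difference was 1.39 ± 0.28 (2.61-fold, adjusted p 0.00176).

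Among the other 14 NF-kB and cytokine genes none passed, where 5.49% of all named genes did. NFKB1, which encodes the p105 precursor of the p50 subunit, was at -0.40, 0.76, 0.73 and 0.13 in the CORT group and from -0.86 to -0.42 in the CHX group. Only replicate 1 of the CORT group approached the CHX range. Its difference of -0.90 had an adjusted p of 0.0565, which was 0.0140 without that array (-1.14) and 0.00103 with the block. IL1B, a cytokine precursor, had an adjusted p of 0.171 and of 0.0368 with the block at a difference of -0.72, but 1 of its 2 probes stood at 0.00.

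SQSTM1, the p62 receptor that delivers ubiquitinated cargo to autophagosomes, was at -0.45, -0.19, -0.58 and -0.21 without CHX and at 0.33, 0.66, 0.89 and 1.06 after it. The difference was 1.09 ± 0.26 (adjusted p 0.00877), and it missed the threshold without replicate 4 of the CHX group (0.98, adjusted p 0.0510). EDN2, the vasoactive peptide endothelin 2, was at -0.95, -1.67 and -0.82 on the 3 CORT arrays that measured it and at 0.01, 1.38, -0.10 and 0.71 after CHX. All CHX values were above the CORT values but widely spread, and the difference of 1.65 (adjusted p 0.0232) lost its call without replicate 2 or 4 of the CHX group or replicate 2 of the CORT group, at 1.35 to 1.57. PIK3C2B, a class II phosphoinositide 3-kinase, and INPP5F, a phosphoinositide phosphatase, differed by 0.92 (adjusted p 0.00134) and 0.87 (adjusted p 0.00437). TAPT1 differed by 1.00 and TCP11X2 by 0.86, and these 4 calls held in every fit that lacked 1 array. SSBP2, a single-stranded DNA-binding protein, differed by 0.88 (adjusted p 0.0375). It kept the call in 1 of those 8 fits, without replicate 3 of the CHX group, and lost it in the other fits at 0.79 to 0.95.

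**Figure D2:**
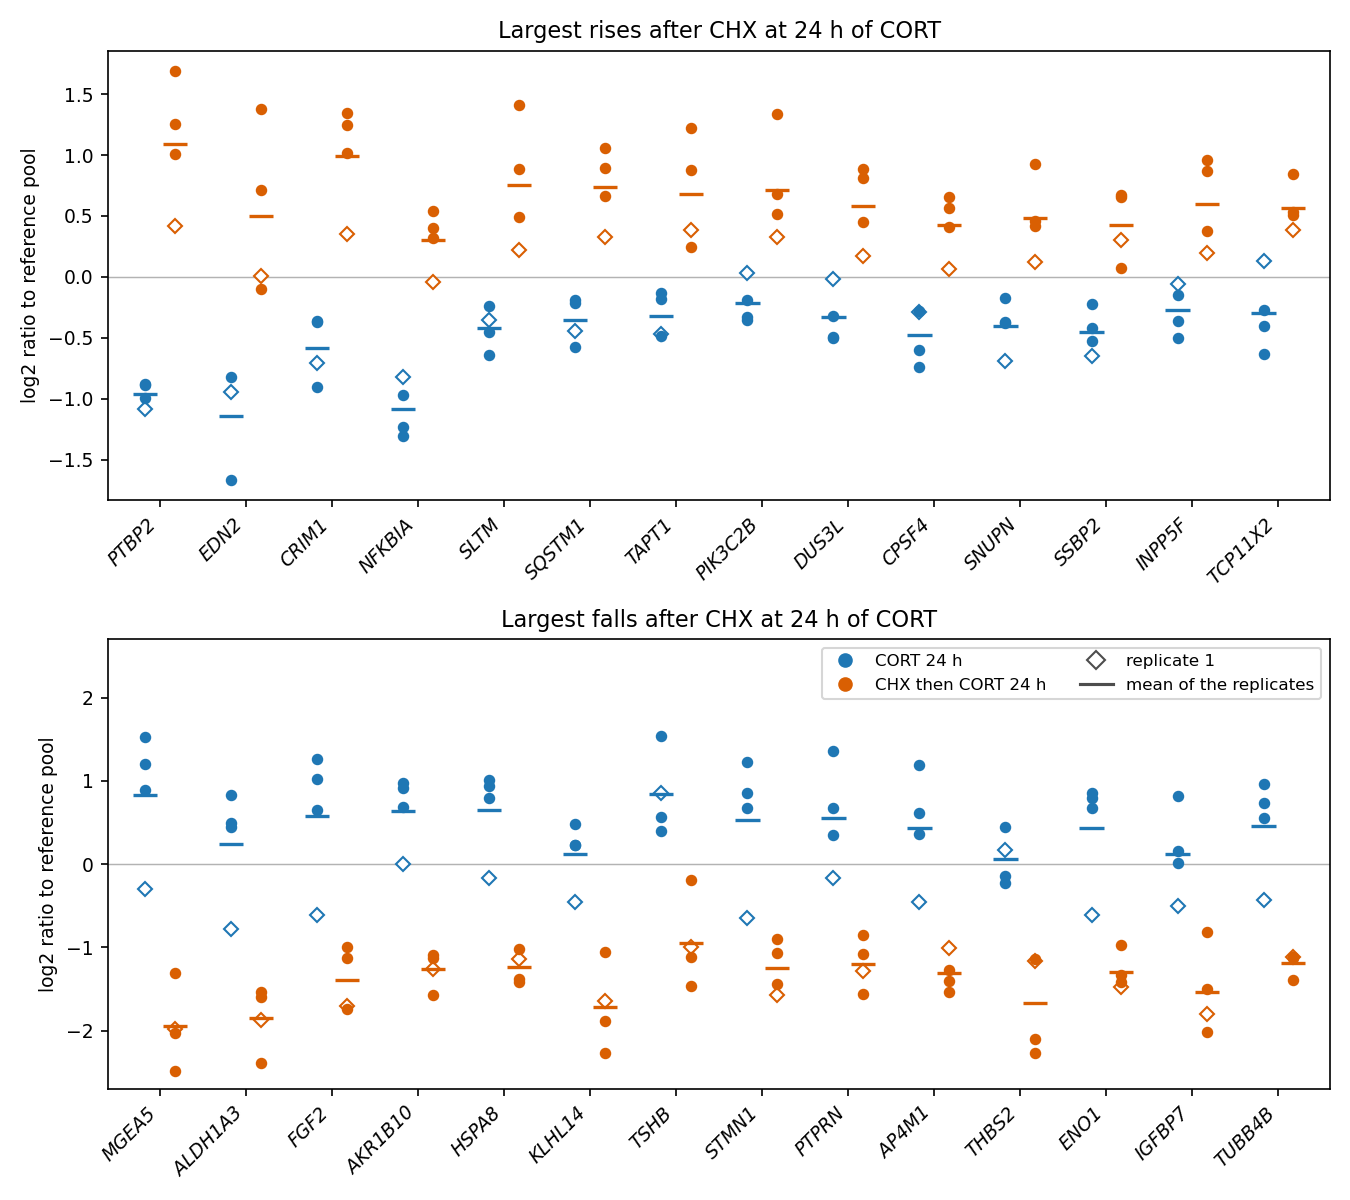
Log2 ratio to the reference pool of the 14 named genes with the largest rise and the 14 with the largest fall among called genes whose groups did not overlap. Points are arrays (4 per group, 3 for EDN2 in the CORT group), open diamonds are replicate 1 and bars are group means. In every panel position the 2 groups are apart, as the rule that chose the genes required. For many falling genes replicate 1 of the CORT group is the lowest of its group, as for ENO1 (-0.61), while for TSHB and THBS2 it is not.

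Genes of hormone and granule production were among the largest falls. TSHB, the beta subunit of thyroid-stimulating hormone, had values of 0.85, 1.54, 0.57 and 0.39 in the CORT group and -0.997, -1.12, -0.20 and -1.46 in the CHX group. The difference was -1.78 ± 0.28 (3.44-fold lower, adjusted p 0.000224), and replicate 1 did not stand apart for this gene. SCG3, secretogranin III of the secretory granule, was at 0.41, 0.37, 0.31 and 0.20 without CHX and at -1.41, -1.47, -0.41 and -1.94 after it. The CORT values were tightly grouped, while replicate 3 of the CHX group was nearest to them. The difference was -1.63 ± 0.26 (adjusted p 0.000224).

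CHGA, chromogranin A, was at -0.17, 1.09, 1.02 and 0.46 without CHX and at -1.12, -0.26, -1.09 and -0.67 after it. Its difference of -1.38 (adjusted p 0.0187) lost the call without replicate 1 or 3 of the CHX group or 2 or 3 of the CORT group, at -1.28 to -1.22. PTPRN, a transmembrane protein of dense-core granules that was not on the list, differed by -1.75 (adjusted p 0.00893) and missed the threshold without replicate 4 of the CORT group (-1.48). RAB3B, a small GTPase of regulated exocytosis, differed by -0.99 (adjusted p 0.0288), and lost its call without replicate 1, 2 or 4 of the CHX group or 2, 3 or 4 of the CORT group, at -1.06 to -0.89. It was the only one of 68 Rab, SNARE and vesicle traffic genes called lower, where 3.24% of named genes were. SNX10 was the only one called higher (0.46, adjusted p 0.0393), where 2.25% of named genes were. The SNX10 call was lost without replicate 2, 3 or 4 of the CHX group or 3 or 4 of the CORT group, at 0.38 to 0.50. With the block 3 of the 68 were higher and 3 lower, against 5.81% and 9.04% of named genes.

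Unlike TSHB, the hormone genes GH and POMC were not called. Of 17 pituitary hormone and granule genes, 3 were lower and 0 higher, against 3.24% and 2.25% of named genes, and their median difference was -0.05. With the block 5 were lower, against 9.04% of named genes, CPE and NR0B1 being added. GH was at 1.22, -0.23, -0.24 and -0.10 in the CORT group and at 0.33, -0.05, 0.01 and 0.14 in the CHX group. Replicate 1 of the CORT group was far above all others, and the difference of -0.05 had an adjusted p of 0.934, with its 2 probes on opposite sides of 0. POMC, the precursor of corticotropin, differed by 0.02 (adjusted p 0.966), with overlapping groups.

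Of 8 pituitary transcription factors 0 passed in either direction, against 5.49% of named genes, and their median was 0.05. POU1F1, the factor of growth hormone, prolactin and thyrotropin cells, was at -0.21, 0.10, 0.52 and 0.11 without CHX and at -0.36, -0.18, -0.08 and -0.15 after it. Its difference of -0.32 had an adjusted p of 0.225, of 0.0207 with the block and of 0.0749 with the block in the 2 groups alone. NEUROD1, RXRG and NR5A1 had adjusted p of 0.329, 0.399 and 0.673.

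Several genes of the microtubule were lower after CHX. TUBB4B, a beta-tubulin, was at -0.43, 0.96, 0.74 and 0.56 in the CORT group and at -1.12, -1.13, -1.12 and -1.40 in the CHX group. Its difference was -1.65 ± 0.35 (adjusted p 0.00324), while TUBB2B, another beta-tubulin, differed by -1.21 (adjusted p 0.00790). TUBB3, the beta-tubulin of neurons and some endocrine cells, was at -0.45, 1.13, 1.03 and 1.55 without CHX and at -1.63, -1.93, -0.42 and -1.51 after it. The groups overlapped by a small margin, at replicate 1 of the CORT group and replicate 3 of the CHX group. TUBB3 differed by -2.19 (adjusted p 0.0106), and the call was lost without replicate 2 of the CHX group or 4 of the CORT group, at -2.0 and -1.94.

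STMN1, stathmin, which sequesters tubulin dimers, differed by -1.77 (adjusted p 0.0149) and lost its call without replicate 4 of the CHX group or 2 or 4 of the CORT group, at -1.71 to -1.54. In all, 4 of 19 tubulin and microtubule genes were lower and 0 higher, with a median of -0.11, against 3.24% of named genes called lower. With the block 7 were lower and 1 higher, against 9.04% and 5.81% of named genes, MAP6, STMN3, STMN4 and TUBA1A being the added genes. STMN3 missed the threshold with the block in the 2 groups alone (adjusted p 0.0539).

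Growth factors and matrix proteins gave another set of large falls. THBS2, the matricellular protein thrombospondin 2, was at 0.17, 0.45, -0.23 and -0.14 in the CORT group and at -1.17, -1.14, -2.10 and -2.27 in the CHX group. The difference was -1.73 ± 0.33 (adjusted p 0.00131), and replicate 1 was no lower than the others without CHX. FGF2, a fibroblast growth factor, was at -0.62, 0.65, 1.03 and 1.26 without CHX and at -1.71, -1.75, -1.13 and -0.995 after it. The groups did not overlap, and the difference of -1.97 (adjusted p 0.0169) lost its call without replicate 2 of the CHX group or 2, 3 or 4 of the CORT group, at -1.95 to -1.75.

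IGFBP7, a secreted protein that binds insulin-like growth factors, differed by -1.65 (adjusted p 0.00194). OGN, the small proteoglycan osteoglycin, was at -0.19, 0.45, -0.02 and 0.05 without CHX and at -1.002, -1.30, -0.80 and -1.57 after it (difference -1.24 ± 0.22, adjusted p 0.000630). Both calls held in every fit that lacked 1 array. TGFBI, a secreted adhesion protein, was at 0.39, 0.44, 0.29 and 0.27 without CHX and at -0.67, -0.88, -0.52 and -0.84 after it, an average of 2 probes that did not agree. One probe differed by -2.19 and the other by 0.04, so the averaged difference of -1.08 (adjusted p 8.49e-05) stands for 1 probe alone.

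Of 17 TGF-beta, BMP and matricellular genes, 1 was higher (CRIM1) and 3 were lower (THBS2, TGFBI and the ligand TGFB3), with a median of -0.03. Over all named genes 2.25% were higher and 3.24% lower. TGFB3 differed by -1.02 (adjusted p 0.0466) and lost the call without replicate 1, 2 or 4 of the CHX group or 2, 3 or 4 of the CORT group, at -1.09 to -0.82. Of 36 collagen, laminin and integrin genes, 1 was higher and 2 lower, near those shares. ITGA4, the integrin alpha 4 chain, differed by 0.39, the alpha 8 chain ITGA8 by -0.73, and COL18A1, whose C-terminal fragment is endostatin, by -0.51 (adjusted p 0.0237, 0.0232 and 0.0288). All 3 were lost without replicate 2 or 4 of the CHX group or replicate 3 of the CORT group, and in 1 or 2 further fits that lacked 1 array, at 0.29 to 0.39, -0.74 to -0.60 and -0.51 to -0.46. With the block 2 of the 36 were higher and 8 lower, against 5.81% and 9.04% of named genes.

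Of 22 fibroblast and matrix markers, 1 was higher and 1 lower, against 2.25% and 3.24% of named genes. Their mean log2 ratio ran from -0.12 to 0.153 over the CORT arrays and from -0.38 to -0.091 over the CHX arrays, ranges that overlapped. In replicate 1 the CHX array, at -0.091, was the higher one. OGN was called lower and PRRX1, a mesenchymal transcription factor, higher (0.48, adjusted p 0.0300, lost without replicate 2 or 4 of the CHX group or 3 or 4 of the CORT group at 0.39 to 0.47). DCN, decorin, differed by -1.38 with an adjusted p of 0.0538. It passed without replicate 1 of the CHX group (-1.55) or of the CORT group (-1.60) and with the block (adjusted p 0.00545). With the block 6 of the 22 were lower, against 9.04% of named genes, COL1A2, COL5A2, COL6A2 and COL6A3 among them. COL6A2 missed the threshold with the block in the 2 groups alone (adjusted p 0.0700).

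Other cell types were read by their own lists, beside 5.49% of all named genes called. The mean of 14 neuron and glia markers was -0.067 to 0.133 without CHX and -0.317 to -0.114 after it, which did not overlap. TUBB3 (-2.19) alone was called, and the median of the list was -0.07. With the block NEFL and STMN3 were also lower (adjusted p 0.00313 and 0.0454) and CNTN1 higher (0.0103), and with the block in the 2 groups alone STMN3 and CNTN1 missed the threshold (0.0539 and 0.0606). Endothelial, red blood cell, immune, and cartilage and muscle markers had 0 called genes of 15, 5, 13 and 14, with medians of 0.06, 0.24, 0.03 and 0.12 and overlapping ranges of their means. With the block COL2A1 and ACTA1 of the cartilage and muscle list were lower (adjusted p 0.0271 and 0.0233) and the globin gene HBBA was higher (0.0103, and 0.0872 with the block in the 2 groups alone), while endothelial and immune markers kept 0 calls. The 17 hormone and granule genes had means of 0.087 to 0.162 without CHX and of -0.303 to -0.086 after it, which did not overlap, though their median difference was -0.05, 8 of the 17 were above 0, and the large falls were those of TSHB, SCG3 and CHGA. The part of cell makeup in the falls was not tested.

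Enzymes and chaperones were among the deepest falls. MGEA5, the enzyme that removes O-linked N-acetylglucosamine from proteins, was at -0.30, 1.20, 0.89 and 1.52 in the CORT group and at -1.98, -1.31, -2.03 and -2.48 in the CHX group. The difference was -2.78 ± 0.62 (6.85-fold lower, adjusted p 0.00451). ALDH1A3, which makes retinoic acid from retinaldehyde, was at -0.78, 0.83, 0.45 and 0.49 without CHX and at -1.87, -1.60, -1.54 and -2.39 after it. Replicate 1 of the CORT group was the lowest of its group for both genes, yet above every CHX value. The ALDH1A3 difference was -2.10 ± 0.38 (4.27-fold lower, adjusted p 0.000990).

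AKR1B10, an aldo-keto reductase, differed by -1.91 (adjusted p 0.00334), and ENO1, the glycolytic enzyme enolase 1, by -1.73 (adjusted p 0.0111). KLHL14, a Kelch-like protein, was at -0.46, 0.48, 0.23 and 0.23 without CHX and at -1.64, -1.88, -1.06 and -2.27 after it (difference -1.83 ± 0.29, adjusted p 0.000224). AP4M1, a subunit of an adaptor complex for vesicle coats, differed by -1.73 (adjusted p 0.00437). These 4 calls held in every fit that lacked 1 array, and no group overlapped.

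HSPA8, the constitutive cytosolic HSP70 chaperone, was at -0.17, 1.01, 0.94 and 0.80 without CHX and at -1.14, -1.02, -1.42 and -1.39 after it. The difference of -1.88 (adjusted p 0.0211) lost its call without replicate 4 of the CHX group or 2, 3 or 4 of the CORT group, at -1.83 to -1.76. It was the only one of 15 cytosolic and mitochondrial heat shock genes called, and their median was -0.08. The share called lower over all named genes was 3.24%, and 9.04% with the block. With the block HSPE1 (-0.36), DNAJA1 (-0.64) and FKBP4 (-0.40) were also lower, at adjusted p of 0.0141, 0.0478 and 0.0160. With the block in the 2 groups alone HSPE1 missed the threshold (adjusted p 0.0958).

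Cholesterol synthesis genes called were all lower. FDPS, farnesyl diphosphate synthase, was at -0.24, 0.60, 0.63 and 0.72 in the CORT group and at -1.19, -1.22, -0.83 and -1.50 in the CHX group. The difference was -1.61 ± 0.34 (adjusted p 0.00294), and the groups were apart even at replicate 1. SQLE, squalene epoxidase, differed by -0.51 (adjusted p 0.0155), lost without replicate 4 of the CHX group or 2 or 4 of the CORT group at -0.47 to -0.44. MSMO1, a sterol C4-demethylating oxidase, differed by -1.12 (adjusted p 0.0269), lost without replicate 1, 2 or 4 of the CHX group or 2, 3 or 4 of the CORT group at -1.18 to -1.05. CYP51A1, lanosterol demethylase, differed by -0.36 (adjusted p 0.0325), lost without replicate 2, 3 or 4 of the CHX group or 2 or 3 of the CORT group at -0.37 to -0.31.

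In all, 4 of 21 cholesterol genes were lower and 0 higher, with a median of -0.12, against 3.24% of named genes called lower. FDFT1, squalene synthase, was at -0.70, 0.32, 0.26 and 0.93 without CHX and at -1.11, -1.25, -0.71 and -1.38 after it. Replicate 1 of the CORT group met the highest CHX value, and the difference of -1.31 had an adjusted p of 0.0537. It passed without replicate 3 of the CHX group (-1.45) or replicate 1 of the CORT group (-1.61) and with the block (adjusted p 0.00183). With the block 6 of the 21 were lower, against 9.04% of named genes, FDFT1 and LSS being added.

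Genes of the endoplasmic reticulum and the unfolded protein response lay mostly below 0. RCN1, a calcium-binding protein of the lumen, was at 0.05, 0.56, 1.19 and 0.82 in the CORT group and at -0.88, -1.03, -0.44 and -1.13 in the CHX group (difference -1.53 ± 0.31, adjusted p 0.00177). HERPUD1, a membrane protein of ER-associated degradation, differed by -0.59 (adjusted p 0.00708), lost without replicate 2 of the CORT group (-0.43). Its call was also lost in a fit of the 2 groups alone (adjusted p 0.098). ATF4, the transcription factor of the integrated stress response, was higher by 0.66 (adjusted p 0.0352), lost without replicate 2 or 4 of the CHX group or 1, 2 or 3 of the CORT group at 0.53 to 0.70. The 2 probes of ATF4 differed by 0.02 and 1.3, so its averaged difference stands for 1 probe alone. Of the 22 genes of this list, 2 were called lower and 1 higher, against 3.24% and 2.25% of named genes. Their median was -0.24, and 5 of the 22 were above 0, against 57.7% of named genes. HSPA5, the chaperone BiP, differed by -0.67 (adjusted p 0.108), and passed without replicate 1 of the CORT group (-0.82) and with the block (adjusted p 0.0261). With the block 5 were lower and 2 higher, against 9.04% and 5.81% of named genes.

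Genes of the amino acid response, many of them known ATF4 targets, were not called higher. The shares over all named genes were 2.25% higher and 3.24% lower. Of 15 amino acid response and serine synthesis genes, 0 were higher and PHGDH, the first enzyme of serine synthesis, was lower (-0.41, adjusted p 0.0240). That call was lost without replicate 2 or 4 of the CHX group or 2, 3 or 4 of the CORT group, at -0.42 to -0.34, and with the block in the 2 groups alone (adjusted p 0.0738). SLC7A5, a large neutral amino acid transporter, differed by -0.30 (adjusted p 0.0931, and 0.0234 with the block or 0.0322 without replicate 1 of the CORT group, at -0.37). With the block in the 2 groups alone its adjusted p was 0.104. ASNS and PSAT1 had adjusted p of 0.504 and 0.256.

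Ribosomal protein genes lay mostly below 0, with few calls. Of 43, 39 were below 0 and their median was -0.32, while 57.7% of all named genes were above 0. Of the 43, 2 were called lower and 0 higher, against 3.24% and 2.25% of named genes. RPL17 differed by -1.16 (adjusted p 0.0226) and RPS15A by -0.61 (adjusted p 0.0187). RPL17 lost its call without replicate 1, 2 or 4 of the CHX group or 2, 3 or 4 of the CORT group at -1.16 to -1.0, and RPS15A without replicate 1 or 4 of the CHX group or 2 of the CORT group at -0.60 to -0.53. The mean over the list was -0.181, 0.314, 0.241 and 0.288 in CORT replicates 1 to 4 and -0.387, -0.165, -0.111 and -0.119 after CHX. Each CHX array was below the CORT array of its number, while CORT replicate 1 lay below all CHX arrays but the first. With the block 17 were lower and 1 higher, against 9.04% and 5.81% of named genes. RPLP0 and RPS20 then had adjusted p of 0.00540 and 0.0226, where the fit without it gave 0.0526 and 0.0554. With the block in the 2 groups alone RPS20 missed the threshold (adjusted p 0.0817), and the 2 probes of RPLP0 differed by -1.32 and 0.09.

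The arrays of this series also spread within their groups along a main axis. It was taken from deviations of the other 40 arrays from their group means, and held 52.35% of that spread. Group differences were thus removed before the axis was drawn, which does not show that treatment leaves it unmoved. Its sign was set so that ribosomal protein genes weigh positively on average. Its score was -0.273, 0.114, 0.161 and 0.170 in CORT replicates 1 to 4 and -0.291, -0.016, -0.065 and -0.047 after CHX. The CHX score was lower in 4 of 4 pairs, by 0.148 on average. An exact two-sided permutation test that ignored the pairs did not separate the groups (p 0.343, where 0.0286 is the smallest these groups allow). Whether CHX shifts the score within pairs was not tested. A positive weight on this axis was carried by 90.4% of the lower and 60.2% of the higher features called, against 43.8% of all features. With the score as a covariate 1384 features passed, 767 higher and 617 lower, so that 55.4% of calls were higher instead of 44.9%, and all 555 were among them with the same sign. In that fit the ribosomal genes had a median of -0.23, with 1 called higher and 7 lower. The endoplasmic reticulum genes had a median of -0.09, with 2 higher and 4 lower. Of all 5644 named genes, 431 were then higher and 343 lower. What part of the falls goes with the axis was not tested.

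Lists of translation, protein degradation and oxidative phosphorylation genes had 1 call each. Over all named genes 2.25% were called higher and 3.24% lower. Of 44 translation factors, EEF1D, a subunit of the exchange factor for elongation factor 1A, was lower (-1.03, adjusted p 0.0299) and 0 were higher. Of 32 proteasome genes, PSMA1, a subunit of the core particle, was lower (-1.13, adjusted p 0.0470). Of 39 oxidative phosphorylation genes, NDUFS3 of complex I was lower (-0.84, adjusted p 0.0288). All 3 lost their call without replicate 1, 2 or 4 of the CHX group or 2, 3 or 4 of the CORT group, at -1.01 to -0.90, -1.13 to -0.97 and -0.88 to -0.71. The medians of these lists were 0.00, 0.00 and -0.06. With the block 2 translation factors were higher and 3 lower, against 5.81% and 9.04% of named genes. For proteasome genes the block gave 1 higher and 1 lower, and for oxidative phosphorylation genes 1 higher and 3 lower. With the block in the 2 groups alone these last 2 lists had 0 and 1 higher and 1 lower each. EIF5B, the factor that joins ribosomal subunits, then had an adjusted p of 0.0245 at a difference of 0.64, against 0.0686 without the block.

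Proliferation genes gave single calls. RRM2, the small subunit of ribonucleotide reductase, was at -0.28, 0.74, 0.83 and 0.81 without CHX and at -0.99, -0.73, -0.39 and -1.17 after it, and differed by -1.35 (adjusted p 0.0304). Replicate 1 of the CORT group lay close to the highest CHX value. The call was lost without replicate 1, 2 or 4 of the CHX group or 2, 3 or 4 of the CORT group, at -1.37 to -1.23. RRM2 was the only called gene of 23 DNA replication genes, median -0.06, where 3.24% of named genes were called lower. With the block 5 of the 23 were lower, against 9.04% of named genes (RRM1 at an adjusted p of 0.00409, PCNA at 0.0119, RPA1 at 0.0124). The 2 probes of PCNA differed by -1.05 and 0.09. Of 19 mitosis genes STMN1 alone was called. CCNG2, a cyclin of quiescent cells, was the only called gene of 17 in apoptosis and p53 pathways, where 2.25% of named genes were called higher. CCNG2 differed by 0.34 (adjusted p 0.0211, lost without replicate 2 or 4 of the CHX group or 2 or 3 of the CORT group at 0.28 to 0.33). With the block KIF20A of the mitosis list (adjusted p 0.0336) and SESN1 of the apoptosis and p53 list (0.0221) were also lower. With the block in the 2 groups alone KIF20A (adjusted p 0.0776) and CCNG2 (0.0702) missed the threshold.

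Of 107 solute carriers, 4 were higher and 7 lower, against 2.25% and 3.24% of all named genes. SLC27A4, a fatty acid transporter, differed by -1.16 (adjusted p 0.00126), SLC12A4, a potassium-chloride cotransporter, by 0.47 (adjusted p 0.00126), and SLC2A14, a glucose transporter family member, by -0.62 (adjusted p 0.00345). Those 3 calls held in every fit that lacked 1 array, but all were lost with the 2 groups fitted alone (adjusted p 0.0555, 0.0687 and 0.0689). The other 8 were SLC16A3, SLC19A3 and SLC15A4 among the higher and SLC25A1, SLC23A1, SLC19A1, SLC25A6 and SLC39A13 among the lower, at differences of 0.46 to 0.66 and -0.81 to -0.37, and each was lost in 1 to 7 of those 8 fits. All 8 but SLC25A6 were also lost with the 2 groups fitted alone. With the block 5 of the 107 were higher and 19 lower, against 5.81% and 9.04% of named genes.

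**Figure D3:**
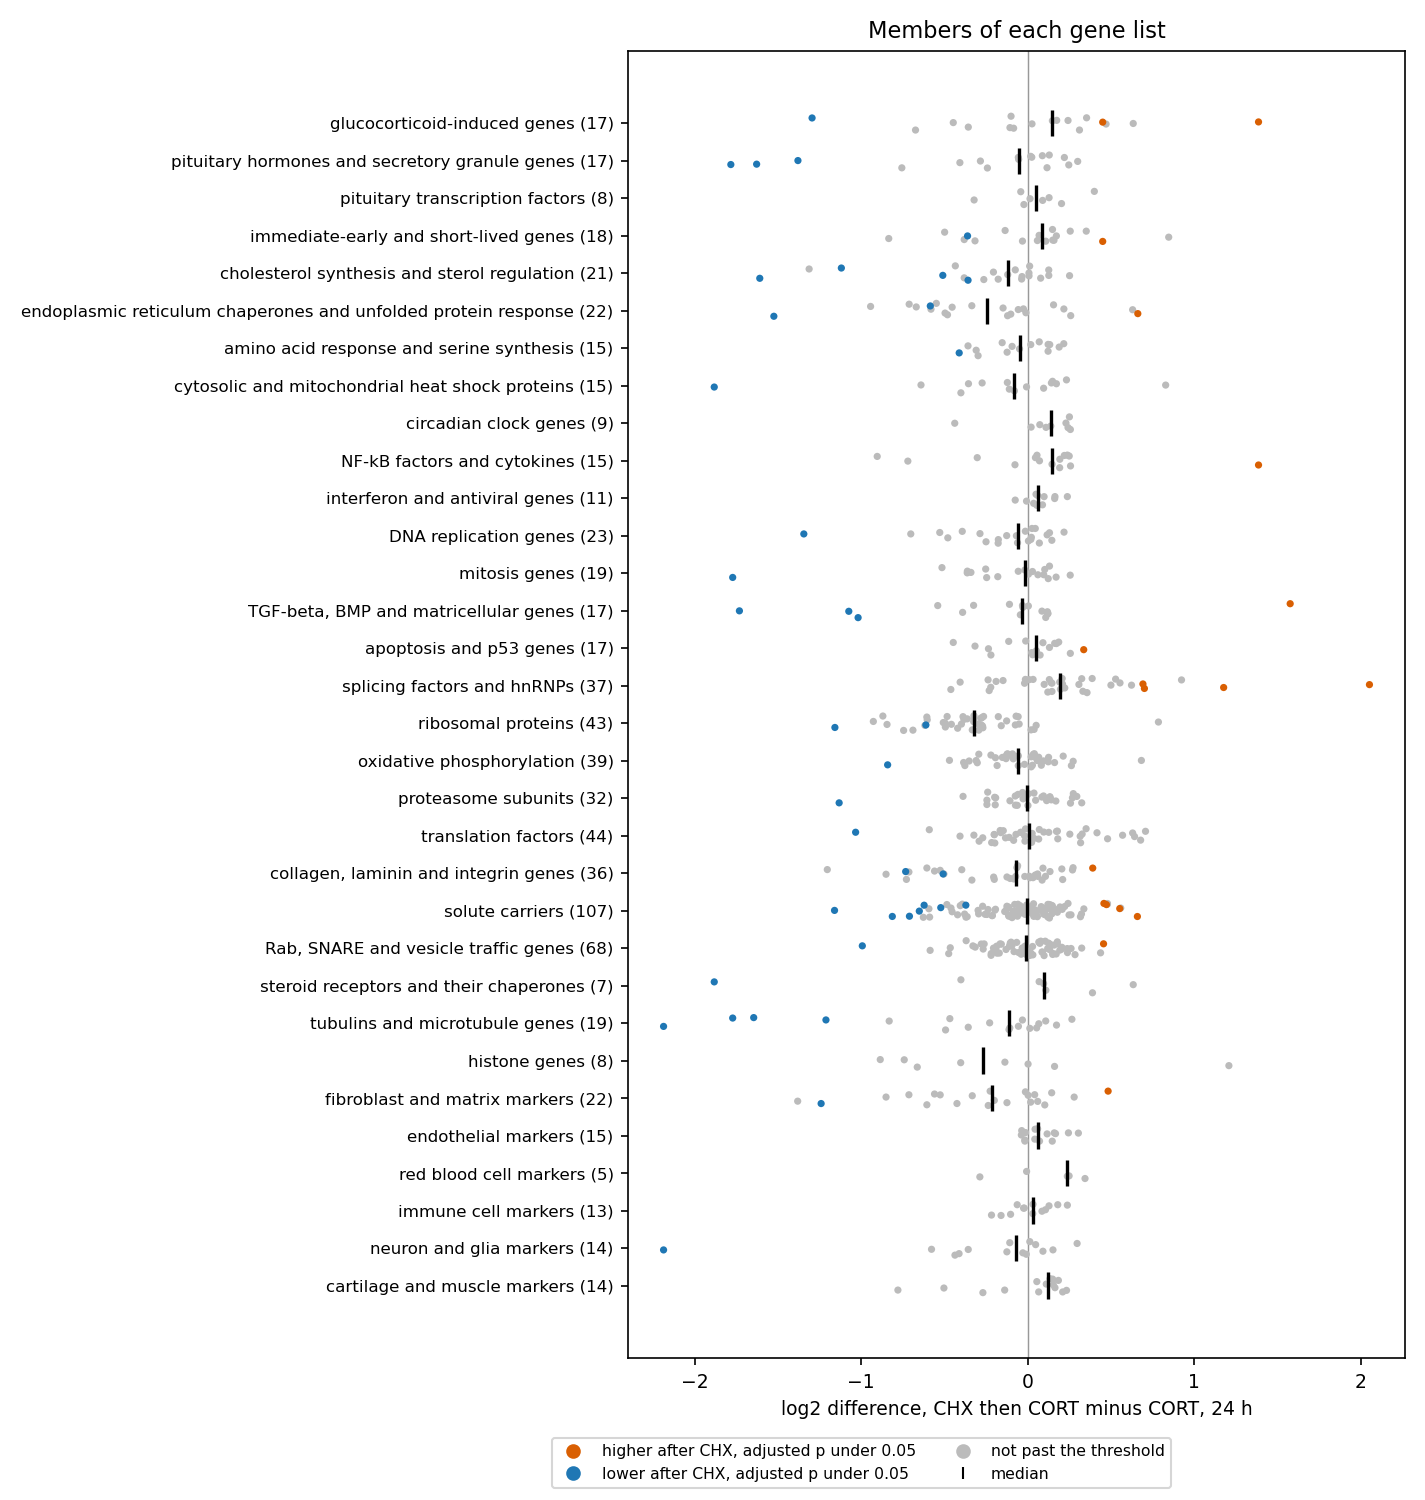
Difference between CHX then CORT and CORT alone at 24 h, on the log2 scale, for each tested member of 32 gene lists, with the number tested in parentheses and the median as a bar. Orange points were called higher and blue points lower. The ribosomal proteins have the lowest median (-0.32) with 2 calls, and the 4 called splicing factors all lie to the right.

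The glucocorticoid response itself was read on 17 induced genes, of which 2 were higher after CHX (NFKBIA and SGK1) and 1 lower (RASL10A). Over all named genes 2.25% were higher and 3.24% lower, and the median of the 17 was 0.15. RASL10A, a small Ras-like GTPase, was at 0.11, 0.71, 0.74 and 1.24 in the CORT group and at -0.64, -0.70, -0.50 and -0.54 in the CHX group. The CHX values were closely grouped below all CORT values, and the difference was -1.30 ± 0.28 (adjusted p 0.00386), kept in every fit that lacked 1 array. Against the 0 h group of its own arm, RASL10A was higher by 1.78 without CHX (adjusted p 0.00217) and by 0.27 after it (adjusted p 0.802). The direct contrast between these 2 differences was -1.51 and was not called (limma, adjusted p 0.171). Both differences share the 24 h samples with the comparison described here.

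FKBP5, the receptor co-chaperone and a classical glucocorticoid target, was at -0.49, -0.57, -0.17 and -0.26 without CHX and at 0.11, 0.39, -0.16 and 0.71 after it. No CHX value lay below a CORT value, though replicate 3 of both groups almost met. The difference of 0.63 had an adjusted p of 0.0591, which was 0.0253 without replicate 3 of the CHX group (0.77) and 0.0212 with the block. SGK1, a serum and glucocorticoid-induced kinase, differed by 0.45 (adjusted p 0.0318, 4 of 5 probes above 0), and lost the call without replicate 1, 2 or 4 of the CHX group or 2, 3 or 4 of the CORT group, at 0.37 to 0.46. RASD1, another Ras-like gene induced by glucocorticoids, differed by -0.67 (adjusted p 0.135, on 3 CHX arrays), and the kinase gene PDK4 by 0.31 (adjusted p 0.301). With the block 4 of the 17 were higher and 2 lower, against 5.81% and 9.04% of named genes, with BCL6 and SESN1 also called.

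Genes that respond within hours to many stimuli were read in the same way, beside 2.25% of all named genes called higher and 3.24% lower. Of 18 immediate-early and short-lived genes, SGK1 was higher and ID2, an inhibitor of helix-loop-helix factors, lower (-0.36, adjusted p 0.0198, lost without replicate 4 of the CHX group or 1 or 2 of the CORT group at -0.35 to -0.25, and with the block in the 2 groups alone at an adjusted p of 0.0596). The 2 probes of ID2 differed by -0.69 and -0.06. JUN, a subunit of the AP-1 factor, was at -1.09, -0.67, -1.08 and -0.91 without CHX and at -0.41, 0.43, -0.15 and -0.22 after it. The groups did not overlap, but the difference of 0.85 had an adjusted p of 0.110, and of 0.0441 with the block. HEY1, a transcriptional repressor downstream of Notch, differed by -0.83 (adjusted p 0.107, 0.0226 with the block and 0.0415 without replicate 1 of the CORT group, at -1.04). EGR1, a zinc finger factor, differed by -0.50 (adjusted p 0.107, 0.00683 with the block and 0.0322 without replicate 1 of the CORT group, at -0.64). ID3 had an adjusted p of 0.366, IMP3 of 0.430 and PRRG3 of 0.287.

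Circadian clock genes, interferon genes and histone genes had 0 called members of 9, 11 and 8, with medians of 0.14, 0.06 and -0.27. Of all named genes 5.49% were called. With the block CSNK1D of the clock list was higher (adjusted p 0.0288, and 0.112 with the block in the 2 groups alone). Among the histones, H3F3B, which encodes the replication-independent variant H3.3, was at -1.05, -0.05, -0.27 and -0.09 without CHX and at 0.08, 1.37, 0.72 and 1.20 after it. Its difference of 1.21 had an adjusted p of 0.0858, which was 0.0482 without replicate 1 of the CHX group (1.46) and 0.0105 with the block. With the block 4 other histone genes were lower, against 9.04% of named genes. Of 7 steroid receptors and chaperones HSPA8 alone was called, and with the block FKBP5 was also called higher and FKBP4 lower.

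Earlier times, which share no sample with 24 h, showed many of the same genes on the same side. The CHX group was compared with the time-matched group without CHX at each time. Features called for that difference numbered 2 at 0 h, 44 at 1.5 h, 18 at 3 h, 440 at 6 h and 157 at 12 h of 11207 tested (0.0178%, 0.393%, 0.161%, 3.93% and 1.40%). Of the 127 named genes higher at 24 h, 107, 110, 118, 123 and 122 were above 0 at these times, and their median difference was 0.13, 0.19, 0.18, 0.39 and 0.37, against 0.54 at 24 h. Of the 183 lower genes, 138, 163, 172, 172 and 179 were below 0, with medians of -0.10, -0.23, -0.30, -0.33 and -0.43, against -0.75. Over all 5644 named genes, 3016 were above 0 at 12 h.

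The differences at each time are set side by side for some of the genes named above. PTBP2 differed by 0.41 at 0 h, 1.03 at 1.5 h, 1.21 at 3 h, 1.99 at 6 h, 1.76 at 12 h and 2.05 at 24 h. NFKBIA differed most at 6 h (2.30) and by 1.39 at 24 h, and EDN2 also differed most at 6 h (2.63). PIK3C2B stood at 0.18 to 0.45 from 0 to 12 h and at 0.92 at 24 h.

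Among the lower genes, HSPA8 differed by -2.33 at 1.5 h, MGEA5 by -3.23 and AKR1B10 by -1.91, against -1.88, -2.78 and -1.91 at 24 h. THBS2 stood between -0.31 and -0.07 from 0 to 12 h and at -1.73 at 24 h. ALDH1A3 differed by 0.39 at 0 h, -0.31 at 1.5 h, -0.27 at 6 h, -0.80 at 12 h and -2.10 at 24 h. TSHB differed by -0.86 at 0 h, where the untreated group stood at 0.89 and CHX alone at 0.02, and by -0.39 to -0.78 up to 6 h, -1.21 at 12 h and -1.78 at 24 h. FKBP5 differed by -0.01 to 0.04 up to 3 h and by 0.76, 0.65 and 0.63 at 6, 12 and 24 h.

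**Figure D4:**
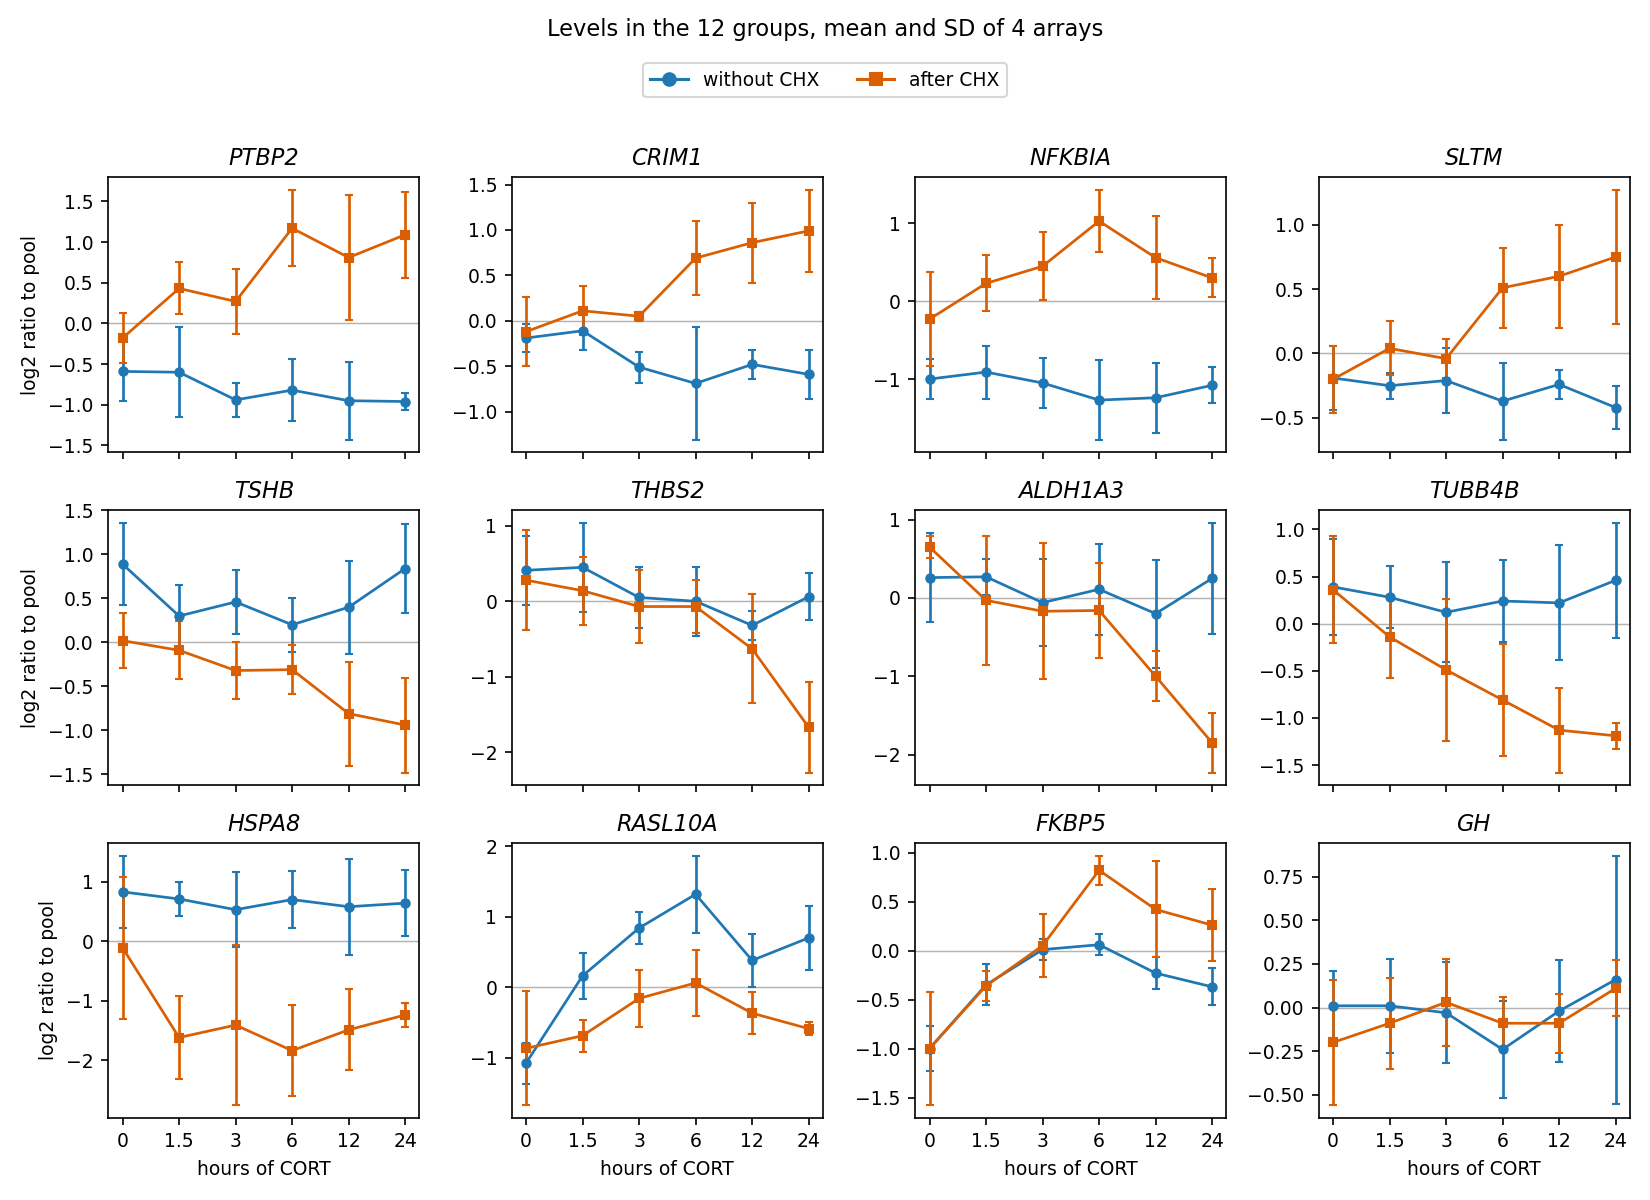
Mean log2 ratio to the pool, with the SD over 4 arrays, of 12 genes in the 12 groups, against hours of CORT (times spaced evenly). Circles are groups without CHX and squares groups after CHX. HSPA8 separates at 1.5 h, while THBS2 and ALDH1A3 separate most at 24 h, and GH does not separate.

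Whether the CHX difference at 24 h itself differed from that at earlier times was tested in the same fit. Between 24 h and 12 h, limma called 0 of 11207 features at a smallest adjusted p of 1.0, and 263 had a p under 0.05 before adjustment. THBS2 gave -1.42 for this contrast and ALDH1A3 -1.30, with unadjusted p of 0.00445 and 0.0216 and adjusted p of 1.0. Between 24 h and 0 h it called 0 features as well (smallest adjusted p 0.0890, 753 features under 0.05 before adjustment), and between 0 and 232 under the alternatives tried. The values by time above are therefore levels side by side and not differences shown between times.

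The difference at 24 h was also split by arm. The 127 higher genes stood at a median of -0.07 in the CORT group against untreated cells. In the CHX group against CHX alone their median was 0.31, and 124 were above 0. The 183 lower genes stood at 0.07 and -0.61, and in the CHX arm 181 were below 0. No share over all named genes is given for these 2 contrasts. Whether the shift in the CHX arm is particular to these genes was not tested. SCG3 differed by -0.04 from untreated cells without CHX and by -1.57 from CHX alone after it (adjusted p 0.999 and 0.000277), and CRIM1 by -0.40 and 1.11 (adjusted p 0.999 and 0.00333). The direct contrast between the arms was -1.53 for SCG3 and 1.51 for CRIM1, and neither was called (limma, adjusted p 0.126 and 0.089). Both splits use the 24 h samples that chose the genes, so they describe them and add no support. Time in culture and duration of CORT ran together in both arms.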

How the data were processed

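RNA was amplified once from an oligo(dT) primer, labelled with Cy3 and hybridised against a Cy5 pool of all samples, per the labels' protocols. The authors deposited log2 ratios for 19200 probes on each array. The base was read from the values (680 of 739065 nonzero values matched the log2 of a ratio of small whole numbers, 133 the natural logarithm and 251 log10). How background was corrected and arrays were normalised is not given in the sources used here. Array SDs of 0.301 to 0.324 point to scaling before deposit, which hides any change in total RNA and may shrink large differences. Intensities were not used, so signal over background is unknown, and the number of arrays limits the precision. Between 14609 and 16611 probes were measured on the 24 h arrays.

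The annotation named 10601 probes, of which 10455 matched the RefSeq gene table by identifier. Probes of 1 symbol were averaged. A feature needed values on at least 3 of 4 arrays in each of 12 groups, which left 11207 features with 0.866% of values missing. A group-means model over 48 arrays (36 residual degrees of freedom) was fitted in R 4.3.3 with the functions lmFit and eBayes (limma 3.58.1, with the package data.table in version 1.17.8). P-values are two-sided and were adjusted by Benjamini-Hochberg over all features, with a threshold of 0.05. On simulated data for the comparison at 24 h (11207 features) it recovered 50% of changes of 0.5, 88% of 1, 96% of 1.5 and 98% of 2 on the log2 scale. The simulated noise was independent between features and between arrays. It held neither the axis nor the shared deviations of equal numbers, so these rates may not hold for the real arrays. The replicate numbers come from the labels, which do not say what they mark. Samples of equal number deviated together at 24 h, with the lowest of the 4 correlations at 0.297, so the numbers were taken as pairs there.

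Named in the text are the 14 largest rises and 14 largest falls among called named genes whose groups did not overlap; the called members of 32 gene lists, with the leading members where under 3 were called; and 14 landmark genes. Genes, lists and comparison were chosen with earlier results of these data known. Alternatives changed the samples fitted, block, filters, scaling, weights, zeros, probe averaging, empirical Bayes settings, axis covariate and single replicates. The block in a fit of the 2 groups alone and the fit without replicate 1 of both were added after seeing the data.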

Additional observations from a re-analysis of the deposited data

Results flagged for a closer look

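Single arrays that stood far from the other 3 of their group were looked for in 308 sets of values, 154 named genes in both 24 h groups, by Dixon's criterion for 4 values. It picked 19 of them, and chance alone picks about 1 in 20. In 10 of them the odd array was replicate 1 of the CORT group. It was lowest for ENO1 (-0.61), FDPS (-0.24), MSMO1 (-0.12), RRM2 (-0.28), RRM1 (-0.38) and SLC39A13 (-0.14), and highest for GH (1.22), CSNK1D (0.11), PSME4 (0.05) and ENG (0.14). The next GH value in that group was -0.10.

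Replicate 1 of the CHX group was lowest for NR3C2 (-0.15) and highest for ESAM (0.11) and ERG (0.32). Replicate 2 of the CORT group was lowest for NR5A1 (-0.38) and IRF1 (-0.39) and highest for RPS15A (0.63). Replicate 3 of the CHX group was lowest for TNFRSF1A (-0.07) and highest for EEF1D (-0.23), and its replicate 4 was lowest for TUBB4B (-1.40).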

How the results depend on the processing

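The 555 features called at 24 h became 313 (79 higher, 234 lower) with the 2 groups fitted alone, 1558 with the replicate number as a block, 1314 with that block in the 2 groups alone (added after seeing the data), 2018 with array weights and 1384 with the axis score as a covariate. Without 1 replicate the count ran from 264 to 776. Filters, quantile normalisation, zeros as missing, single probes and the other empirical Bayes settings gave 531 to 697. The difference between 24 h and 12 h had 0 calls under every alternative. That between 24 h and 0 h had 0 calls and rose to 120 with the replicate block, 232 with array weights, 176 with the axis score, and 1 with quantile normalisation or with single probes. Without 1 replicate it ran from 0 to 12. Correlations of equal numbers ran from -0.439 to 0.569 at 12 h, where 1 of 4 was over 0.1. At 0 h they ran from -0.0963 to 0.865, where 3 of 4 were, so pairing was not clear at either time. The block over 48 arrays still used the numbers in all 12 groups. Only the block in the 2 groups alone used them at 24 h alone. The cause of the moves in the counts was not tested. The axis score difference stayed between -0.253 and -0.0856 under its alternatives, with no exact permutation p under 0.0571. Among 3172 values of single named genes under alternatives, 2740 kept direction and side of the threshold, 229 lost the call, 192 gained it and 11 turned sign. The 11 belong to 5 genes that were called in none of those fits. With the axis score POMC stood at -0.14, ERG at -0.03 and CD3E at -0.01. GH stood at 0.16 with array weights and 0.22 without replicate 1 of both groups, where POMC was at -0.02. Without 1 replicate GH ran from -0.19 to 0.30, POMC from -0.07 to 0.10 and NR5A1 from -0.02 to 0.21. The block over 48 arrays removed no call, and the block in the 2 groups alone kept 489 of the 555. Of 72 called genes named, 31 kept the call without any 1 replicate, and 28 kept it under every alternative. Besides solute carriers, SF3B3, SGK1, ID2, SQLE, CYP51A1, HERPUD1 and ATF4 lost the call with the 2 groups fitted alone. PHGDH, CCNG2, ITGA4, PRRX1, SNX10, NDUFS3 and PSMA1 lost it there too. From ATF4 to ID2, adjusted p of these genes in that fit ran from 0.055 to 0.196. With 4 arrays a group and an unknown signal over background, a missed call does not show an equal level.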

Other observations

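Gene families outside the lists were read after the values had been seen, so their counts describe these samples and carry no test of the family. Over all named genes 2.25% were higher and 3.24% lower. Of 38 glutathione, peroxiredoxin and aldo-keto reductase genes, 9 were lower after CHX and 0 higher, with a median difference of -0.18. Besides AKR1B10 they were the glutathione transferases GSTA2 (-1.15, adjusted p 0.0152), GSTA3 (-0.91) and GSTO2 (-0.76), the microsomal ones MGST1 (-0.87, adjusted p 0.00105) and MGST3 (-0.83), the peroxiredoxin PRDX4 (-0.57), the glutaredoxin GLRX2 (-0.28) and AKR1E2 (-0.99). Of 15 glycolysis enzymes ENO1 and LDHA (-0.70, adjusted p 0.00658) were lower, and 12 of the 15 were below 0. Of 28 actin cytoskeleton genes 4 were lower and 0 higher, namely ACTB (-1.05, adjusted p 0.0125), ACTA2 (-0.87), ARPC4 (-0.92) and TPM2 (-0.32).

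Other families held more rises. Of 26 genes of mRNA 3' end formation and decay, 5 were higher and 1 lower, with a median of 0.19. The decay factors UPF1 and UPF2 differed by 0.72 and 0.43 (adjusted p 0.0367 and 0.0386), the cleavage factor CSTF3 by 0.72, the deadenylase subunit PAN2 by 0.45 and CPSF4 as given above, while the kinase SMG1 differed by -0.70. Of 30 genes with exocyst, TRAPP or VPS symbols 5 were higher and 0 lower, the exocyst subunits EXOC2 (0.47) and EXOC3 (0.67) among them. A set of 27 genes was picked by symbols such as HDAC, PHF, SIN3, SMARC and SMC, and not all its members are chromatin regulators. Of these 7 were higher and 1 lower (PHF24, -0.89). The corepressor SIN3A stood at 0.81 (adjusted p 0.0163), the cohesin subunit SMC3 at 0.75 (adjusted p 0.00341) and the deacetylase HDAC3 at 0.47. The median of that last set was 0.06, near the 0.04 of all named genes.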
